A study of Homo sapiens with 6 samples.

Results

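The erythroid transcription factors and the globin repressor BCL11A were followed in parental and methotrexate-resistant K562 cells. The set holds 10 genes, BCL11A, GATA1, GATA2, KLF1, NFE2, GFI1B, ZFPM1, MYB, ZBTB7A and SOX6, and every probe set whose platform annotation names one of them was taken. This gave 31 of the 54675 probe sets on the array. A probe set is a group of short oligonucleotides that together read the transcripts of a gene, and the same gene can have several. K562 is an established human line, labelled erythroblastic leukemia, that carries the BCR-ABL fusion and makes embryonic and fetal haemoglobin. Methotrexate (MTX) is a folate antagonist that inhibits dihydrofolate reductase.

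The parental group was K562 sensitive to MTX, and the resistant group was K562 able to grow in 10 µM MTX after selection in stepwise concentrations of the drug. Each group had 3 arrays of total RNA. The study's methods describe Ham's F12 medium with fetal bovine serum for routine culture and a medium without glycine, hypoxanthine and thymidine, with dialysed serum, for resistant cells, so the effects of resistance and of the medium cannot be told apart. The sources used here describe no second resistant derivative of K562, and nothing states whether the replicates were separate cultures, so p-values measure only the spread between these samples, which may be technical. On bulk arrays, fewer cells expressing a gene and less RNA per cell cannot be told apart.

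Erythroid identity rests on a small circuit of transcription factors. GATA2 maintains progenitors and gives way to GATA1, which binds DNA together with its cofactor ZFPM1 (FOG1) and with the TAL1, LMO2 and LDB1 complex to switch on globin, haem and membrane genes. KLF1 and NFE2 activate globin genes through CACCC boxes and the locus control region, GFI1B represses progenitor genes, and MYB keeps progenitors dividing. BCL11A, ZBTB7A (LRF) and SOX6 silence the fetal or embryonic globin genes as the globin switch proceeds, and MYB and KLF1 act upstream of BCL11A.

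Signals are given as multiples of the median of the array, on a linear scale, and differences as resistant minus parental on the log2 scale. A signal under 1 lies in the range of background. A probe set was tested when its mean over the 6 arrays was at least 1, and called when limma's adjusted p was under 0.05 and the fold at least 2. Levels of different probe sets were not compared, since each has its own affinity. The probe sets of a gene are numbered by falling mean signal over the 6 arrays, so the first is the one with the highest mean, and the plots give the manufacturer's identifier of each in the same order. Parental array 1 stood apart from the other parental arrays: its rank correlation with them was 0.899 and 0.889, against 0.969 between the latter and 0.941 to 0.968 among resistant arrays. For the 10 genes, a difference that this array moved by over 1.5 times is given below with and without it.

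Of the 31 probe sets of the 10 genes, 23 were tested, 3 were called higher in resistant cells and 0 were called lower. The calls were the first and the fourth probe set of BCL11A and the fourth of SOX6. Over all 26692 tested probe sets, 1.20% were called higher and 1.14% lower. With the values as deposited, without division by the array median, the share of higher calls among all calls was 39.3% in place of 51.3%, and the median difference of all tested probe sets was -0.18 in place of 0.03. At an unadjusted p under 0.05 in limma, 9 probe sets of the 10 genes were higher and 1 was lower, where 18.7% of all tested probe sets passed in either direction, and the methods' t-test with Benjamini-Hochberg adjustment called 0 in either direction. Here and below, that test was run on log2 values after the level filter, without the study's error model and control strength filter. It called 82 of all tested probe sets higher and 44 lower. Its 0 for the 10 genes is therefore not a result of the study's own analysis. In 10 of the 23 the resistant arrays all lay above the parental arrays, and in 0 they all lay below. Of all tested probe sets, 14.9% and 12.3% did so. These counts are a description, because 7 of the 23 probe sets, 4 of BCL11A and 3 of SOX6, had a parental mean under 1 and so passed the level filter only through their resistant arrays. All 3 calls were among these 7, as were 7 of the 9 higher at an unadjusted p under 0.05, the other 2 being of MYB. Of the other 16, 3 did not overlap on the higher side, which is 18.8%, against 13.7% of all tested probe sets with a parental mean of at least 1.

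Nearest to the filter, the fourth BCL11A probe set passed with a mean of 1.07 array medians and the third of ZBTB7A with 1.47, whereas the fourth and the fifth of ZBTB7A, with 0.934 and 0.608, did not. The 8 probe sets that were not tested belonged to SOX6, ZBTB7A and ZFPM1, and none of them exceeded 1.72 array medians on any array.

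**Figure D1:**
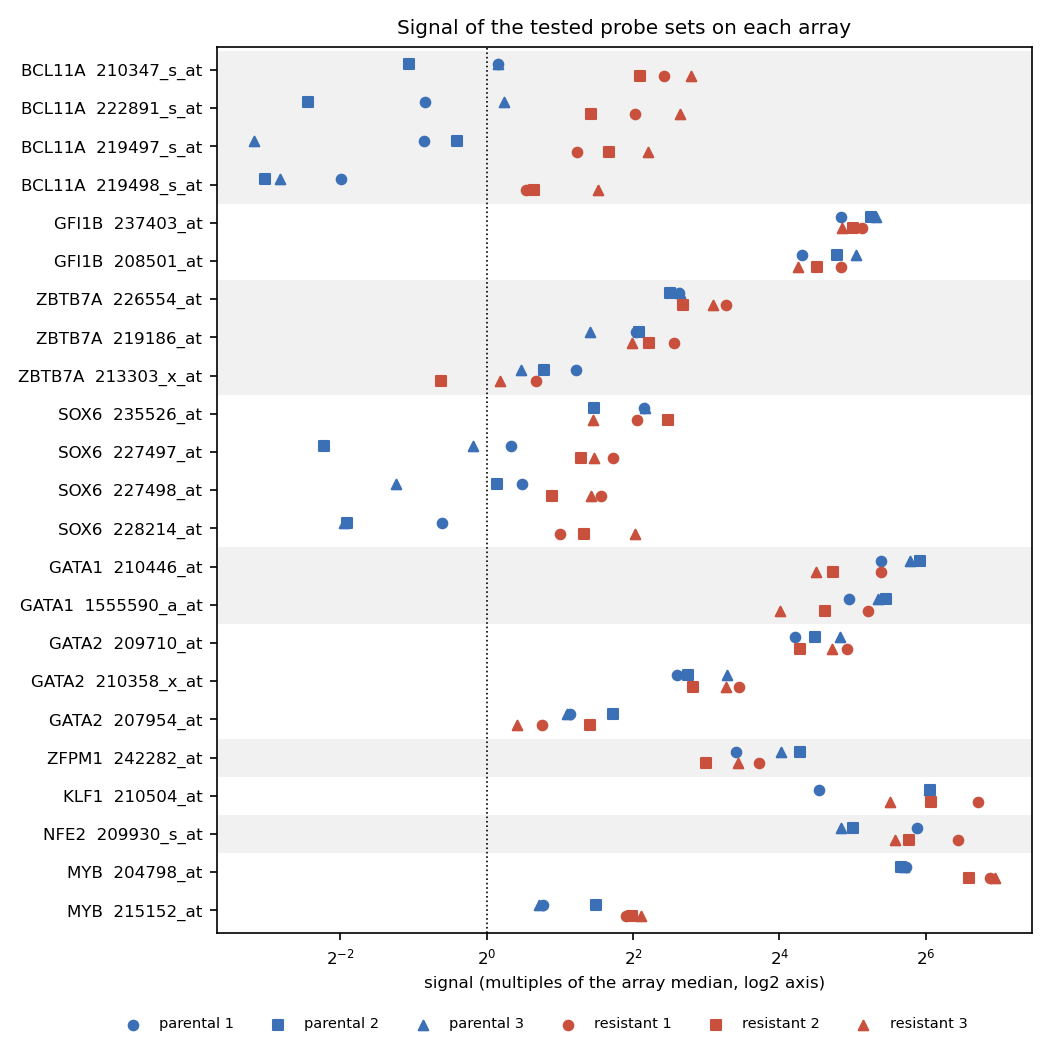
Signal of the 23 tested probe sets of the 10 genes on each of the 6 arrays, as multiples of the array median (log2 axis), with parental arrays in blue and resistant arrays in red and the array number given by the marker. The dotted line is the array median. All 4 BCL11A probe sets and 3 of the 4 SOX6 probe sets have their resistant arrays to the right of every parental array, as do both MYB probe sets.

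BCL11A, the zinc finger repressor that silences fetal globin genes, had the largest difference of any tested probe set of the 10 genes, and all 4 of its probe sets had every resistant array above every parental array. With the first probe set its signal was 1.11, 0.481 and 1.11 array medians on parental arrays 1 to 3 and 5.36, 4.26 and 6.90 on resistant arrays 1 to 3. Parental cells were at or near background and every resistant array was clearly above it. The mean was 0.901 ± 0.364 (SD, n = 3) in parental and 5.51 ± 1.33 (SD, n = 3) in resistant cells, a log2 difference of 2.68 (SE 0.40, 95% interval 1.73 to 3.64), or 6.43-fold, with a limma adjusted p of 0.0254.

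The other 3 BCL11A probe sets ran the same way. With the fourth the signal was 0.252, 0.122 and 0.142 on parental and 1.46, 1.56 and 2.86 on resistant arrays, a log2 difference of 3.51 (SE 0.39) with a limma adjusted p of 0.00988. Every parental array was under the array median here, so the 11.4-fold ratio is against background. With the second the signal was 0.559, 0.183 and 1.18 on parental and 4.09, 2.67 and 6.22 on resistant arrays, and with the third it was 0.552, 0.756 and 0.110 against 2.34, 3.18 and 4.60. Neither of these was called, with log2 differences of 3.04 and 3.18 and limma adjusted p of 0.0862 and 0.0882, although resistant and parental arrays did not overlap. Their parental arrays were spread over the background range, and the 95% interval ran from 1.38 to 4.70 for the second and from 1.43 to 4.93 for the third. All 4 carry the suffix _s_at, which marks probes shared by several transcripts, and whether they read different BCL11A isoforms cannot be told from these data.

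The call of the first BCL11A probe set did not withstand the loss of most single arrays: its limma adjusted p was 0.0573 without parental replicate 3, 0.0934 without resistant replicate 1, 0.0843 without resistant replicate 2 and 0.0891 without resistant replicate 3. It was kept without parental replicate 2 and without parental replicate 1, where the log2 difference was 2.89 and the limma adjusted p 0.0266. The difference stayed above 0 in each of the 16 alternatives in which this probe set was tested, from 1.77 to 2.89, and was called in 10 of them. As the groups did not overlap, leaving out an array could not turn the sign. Other filters and tests left the difference itself unchanged, so only the call could vary there. For the fourth probe set the difference was above 0 in 11 of 11 alternatives and called in 8. These 11 leave out the loss of resistant replicate 1, 2 or 3, where its mean fell under the level filter. It was also not tested as deposited, with the filter at 2 array medians or without shared probe sets. The 2 counts of calls are therefore not comparable between the first and the fourth.

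SOX6, an HMG-box factor that acts with BCL11A on the fetal and embryonic globin genes, gave probe sets that disagreed. With the fourth probe set the signal was 0.657, 0.267 and 0.260 array medians on parental and 2.00, 2.50 and 4.07 on resistant arrays, a log2 difference of 2.93 (SE 0.46, 95% interval 1.84 to 4.03), or 7.64-fold, with a limma adjusted p of 0.0298. With the first, by contrast, it was 4.42, 2.76 and 4.46 on parental and 4.15, 5.58 and 2.73 on resistant arrays. Here the groups overlapped throughout, and the log2 difference was 0.07 with a 95% interval from -0.76 to 0.91, which does not reach the value of the fourth. Limma gave this probe set an adjusted p of 0.933, its difference was 0.18 without parental replicate 1 (adjusted p = 0.820), and its sign turned to -0.13 with the values as deposited, to -0.16 without parental replicate 2 and to -0.17 without resistant replicate 2.

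Of the remaining SOX6 probe sets, the second read 1.26, 0.214 and 0.882 on parental and 3.31, 2.43 and 2.77 on resistant arrays. Its log2 difference was 2.19, with a limma adjusted p of 0.148. For the third the signal was 1.39, 1.10 and 0.425 against 2.95, 1.86 and 2.68, a log2 difference of 1.498 with a limma adjusted p of 0.168. In both the groups were separate, but neither was called. The fifth, which was not tested, lay between 0.0769 and 0.153 in parental and between 0.840 and 1.12 in resistant cells, and the other untested probe sets were under 1 on all 6 arrays. The call of the fourth SOX6 probe set was lost without any single array other than parental replicate 1, with limma adjusted p from 0.0748 to 0.113, and without parental replicate 1 its log2 difference was 3.37 with an adjusted p of 0.00904. The platform annotation pairs all 8 probe sets with SOX6, and which transcripts each one reads was not tested.

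The sequence before the transcription starts is shown for BCL11A and SOX6, the only genes of the 10 with called probe sets, and for MYB, whose probe sets were higher on every resistant array. Each is the 250 bases before the outermost RefSeq start of assembly GRCh38.p14, read 5′ to 3′ on the strand of the gene, with matches of the motifs searched in capitals. BCL11A lies on the minus strand at chr2:60553925-60554174, SOX6 on the minus strand at chr11:16738478-16738727 and MYB on the plus strand at chr6:135181058-135181307.
BCL11A: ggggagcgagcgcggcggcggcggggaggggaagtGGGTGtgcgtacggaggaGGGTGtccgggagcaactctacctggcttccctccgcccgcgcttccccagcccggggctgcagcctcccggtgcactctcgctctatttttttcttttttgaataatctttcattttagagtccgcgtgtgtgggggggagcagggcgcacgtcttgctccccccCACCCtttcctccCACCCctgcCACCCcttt
SOX6: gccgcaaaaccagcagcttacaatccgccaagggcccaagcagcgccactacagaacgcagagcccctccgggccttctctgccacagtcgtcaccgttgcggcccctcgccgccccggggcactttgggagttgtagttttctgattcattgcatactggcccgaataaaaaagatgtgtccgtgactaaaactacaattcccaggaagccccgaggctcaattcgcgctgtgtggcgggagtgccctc
MYB: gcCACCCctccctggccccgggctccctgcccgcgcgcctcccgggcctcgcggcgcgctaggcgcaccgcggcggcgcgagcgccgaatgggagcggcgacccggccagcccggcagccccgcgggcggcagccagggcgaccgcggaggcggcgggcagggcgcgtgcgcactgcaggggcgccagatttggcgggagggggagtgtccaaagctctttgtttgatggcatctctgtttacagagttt

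The motifs were AGATAA and TGATAA (bound by GATA factors), CACCC (KLF factors), CCAAT (NF-Y), AACAAT (SOX factors) and TGACCA (BCL11A), each sought on both strands. The BCL11A window held 5 CACCC matches, at bases 31 to 27, 18 to 14 and 9 to 5 before the start and, as GGGTG on the other strand, at bases 215 to 211 and 197 to 193. The MYB window held 1 CACCC match, at bases 248 to 244, and the SOX6 window held none of the 6 motifs. CACCC is common: it was present in 54.7% of 35116 promoter windows of the same length, against 9.17% for AGATAA, 6.66% for TGATAA, 32.0% for CCAAT, 8.98% for AACAAT and 9.19% for TGACCA. BCL11A and SOX6 each have 5 annotated starts, and which of them K562 uses was not measured. Over the 5 windows BCL11A held 5, 0, 1, 4 and 1 CACCC matches, and AACAAT occurred in 3 of the 5 SOX6 windows. A match describes letters in this window and shows no binding.

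ZBTB7A, which silences fetal globin alongside BCL11A, showed small differences in both directions. With the first probe set its signal was 6.16, 5.66 and 6.23 array medians on parental and 9.63, 6.41 and 8.55 on resistant arrays, a log2 difference of 0.43 (95% interval -0.13 to 0.99, limma adjusted p = 0.381). Resistant replicate 2 lay just above the highest parental array, and the groups did not overlap. With the second the log2 difference was 0.41 (limma adjusted p = 0.483) and with the third it was -0.74 (limma adjusted p = 0.363), both with overlapping groups. The intervals of the first and the second hold no difference above 1.09 on the log2 scale, well under that of the fourth BCL11A probe set.

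GFI1B, a repressor of progenitor genes, was expressed on every array without a detectable difference. With the first probe set the signal was 28.5, 38.0 and 39.9 array medians on parental and 34.9, 32.1 and 28.9 on resistant arrays, and the groups overlapped. The log2 difference was -0.14 with a 95% interval from -0.69 to 0.41, and the second gave -0.18 with an interval from -0.86 to 0.50. The limma adjusted p was 0.785 and 0.772. Without parental replicate 1, where the lowest parental signal of the first probe set lay, the differences were -0.29 and -0.39 (limma adjusted p = 0.482 and 0.448).

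GATA1, the master activator of erythroid genes, was lower on average in resistant cells but was not called. With the first probe set the signal was 41.8, 60.7 and 54.9 array medians on parental and 42.0, 26.5 and 22.5 on resistant arrays. Resistant replicates 2 and 3 were below every parental array, while resistant replicate 1 was level with parental replicate 1. The log2 difference was -0.82 (SE 0.31, 95% interval -1.56 to -0.09), with an unadjusted limma p of 0.0334 and an adjusted p of 0.221. The second probe set read 30.8, 44.0 and 40.7 on parental and 37.0, 24.5 and 16.1 on resistant arrays, a log2 difference of -0.64 (95% interval -1.48 to 0.20, limma adjusted p = 0.382). Both probe sets stayed below 0 in all 17 alternatives, from -1.08 to -0.63 for the first and from -0.94 to -0.34 for the second, and were called in 0.

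GATA2, the GATA factor of progenitors, did not differ beyond the spread of the arrays. With the first probe set its signal was 18.5, 22.5 and 28.3 array medians on parental and 30.3, 19.5 and 26.3 on resistant arrays, a log2 difference of 0.13 with a 95% interval from -0.52 to 0.79 and a limma adjusted p of 0.832. The sign of this difference turned with the values as deposited and without parental replicate 1, where it was -0.02, or resistant replicate 1. With the second the log2 difference was 0.30 (limma adjusted p = 0.614), or 0.16 without parental replicate 1 (limma adjusted p = 0.793), and with the third it was -0.46 (limma adjusted p = 0.500).

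ZFPM1, the cofactor that GATA1 needs at many of its sites, read 10.6, 19.5 and 16.3 array medians on parental and 13.2, 7.97 and 10.8 on resistant arrays with its first probe set. The groups overlapped through parental replicate 1. The log2 difference was -0.52 (95% interval -1.29 to 0.24, limma adjusted p = 0.428), and without parental replicate 1 it was -0.77 (limma adjusted p = 0.202). The second ZFPM1 probe set stayed under 1 on all arrays and was not tested.

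KLF1, the CACCC-binding activator of adult globin and of BCL11A, was strongly affected by 1 parental array. With its single probe set the signal was 23.2, 66.6 and 66.0 array medians on parental and 105.2, 67.4 and 45.8 on resistant arrays. Parental replicate 1 was low and the resistant arrays spread to either side of the other parental arrays. The log2 difference was 0.56 (95% interval -0.67 to 1.79, limma adjusted p = 0.600), and without parental replicate 1 it was 0.05 (limma adjusted p = 0.952).

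NFE2, the subunit of the NF-E2 dimer that binds the globin locus control region, was displaced the other way on the same array. With its single probe set the signal was 58.9, 32.3 and 28.7 array medians on parental and 86.8, 54.8 and 47.7 on resistant arrays. Parental replicate 1 lay among the resistant arrays, and the other parental arrays lay below all of them. The log2 difference was 0.68 (95% interval -0.21 to 1.58, limma adjusted p = 0.378) and 1.00 without parental replicate 1 (limma adjusted p = 0.149). Parental replicate 1 differed from the mean of the other parental arrays by -1.52 on the log2 scale for KLF1 and by 0.95 for NFE2, against 0.05 for the first MYB probe set.

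MYB, the progenitor factor that lies upstream of BCL11A and KLF1, had every resistant array above every parental array at signals well above background. With the first probe set its signal was 53.2, 50.7 and 51.9 array medians on parental and 117.3, 95.95 and 123.2 on resistant arrays. The parental arrays lay close together and every resistant array was far above them. The mean went from 52.0 ± 1.26 to 112.2 ± 14.3 (SD, n = 3), a log2 difference of 1.10 (SE 0.21, 95% interval 0.61 to 1.60), or 2.15-fold. The limma adjusted p was 0.0527, so the probe set was not called, and it was called in 5 of the 17 alternatives, with adjusted p from 0.00526 to 0.25 over them.

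The second MYB probe set had a signal of 1.70, 2.80 and 1.64 array medians on parental and 3.74, 3.96 and 4.30 on resistant arrays. Its groups did not overlap either. The log2 difference was 1.01 (95% interval 0.36 to 1.67), or 2.01-fold, with a limma adjusted p of 0.123. Both MYB probe sets stayed above 0 in all 17 alternatives, although with separate groups leaving out an array could not turn the sign.

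**Figure D2:**
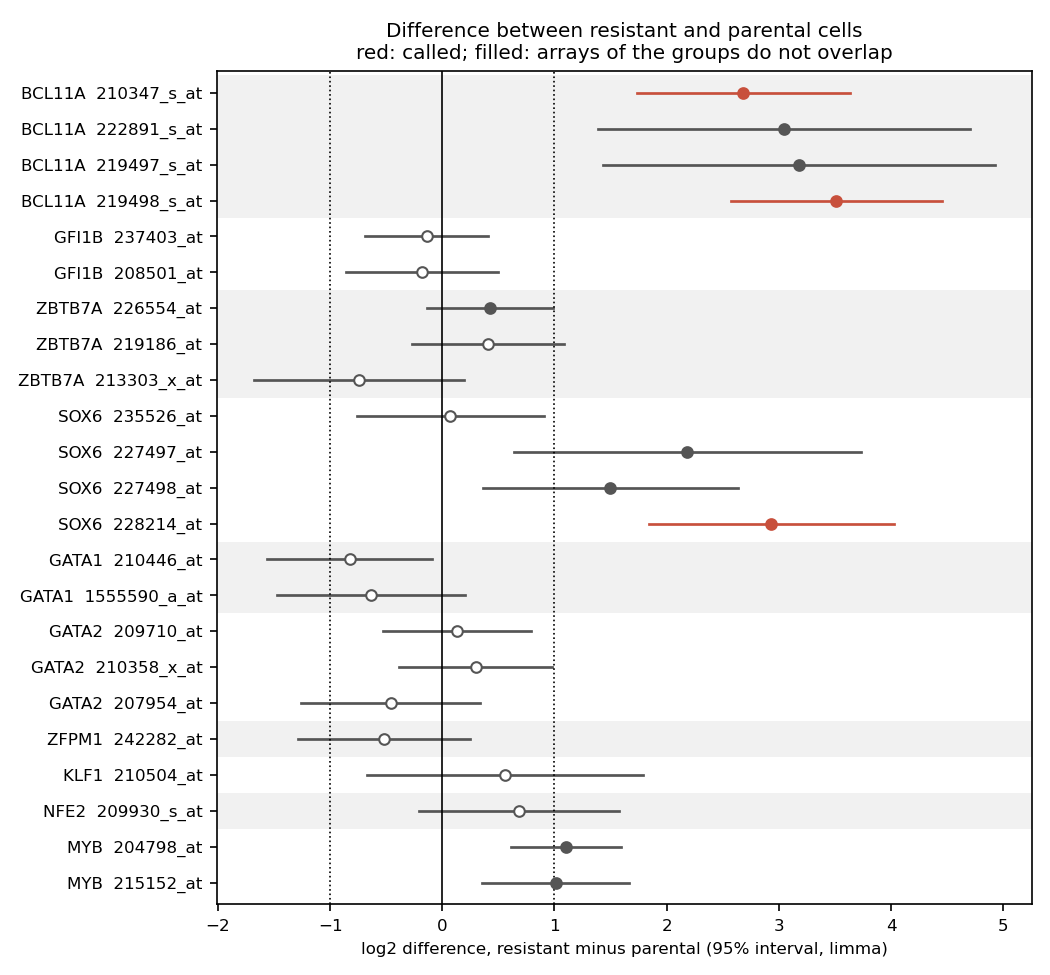
Log2 difference, resistant minus parental, of each tested probe set of the 10 genes with its 95% interval from limma over 3 arrays a group; red marks called probe sets, filled points mark groups of arrays that do not overlap, and dotted lines mark a fold of 2. BCL11A lies between 2.68 and 3.51 and the SOX6 probe sets between 0.07 and 2.93. The intervals of ZBTB7A, GFI1B, GATA2, ZFPM1, KLF1 and NFE2 cross 0, as do those of the first SOX6 and the second GATA1 probe set.

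**Figure D3:**
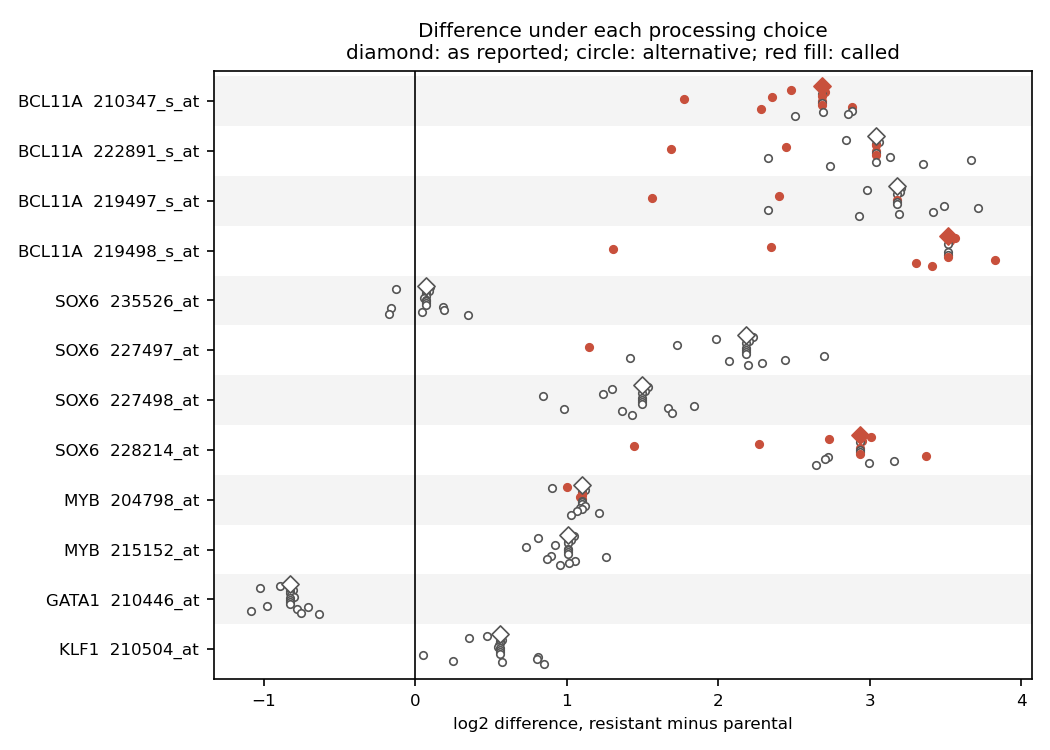
Log2 difference of 12 probe sets as reported (diamond) and under each alternative in which the probe set was tested (circle), red where called. Shown are every tested probe set of BCL11A, SOX6 and MYB and the first of GATA1 and KLF1. The first SOX6 probe set lies on both sides of 0, whereas all the others shown keep their side of it. KLF1 comes as near to 0 as 0.05.

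The genes around these factors were taken from a list of 81 partners, relatives and regulators, of which 70 had a tested probe set. Each gene was represented by the tested probe set that had its highest mean log2 signal, and on that basis 2 of the 70 were called higher and 1 lower, which is 4.29% against 2.77% of the 11810 genes so represented. The median difference of the list was 0.12, against 0.02 for all these genes, and the groups did not overlap in 34.3% of the list and 30.2% of all genes. At an unadjusted p under 0.05 in limma there were 13 of the 70, against 2362 of the 11810.

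Among the 9 members of the GATA1 and TAL1 complex, SSBP2, a single-stranded DNA binding protein that stabilises LDB1, was called. Its signal was 23.3, 21.6 and 16.02 array medians on parental and 100.8, 86.2 and 118.0 on resistant arrays, a log2 difference of 2.33, or 5.03-fold, with a limma adjusted p of 0.00836. All resistant arrays were far above all parental arrays, and 5 of its 6 probe sets were called. SSBP2 was among the genes that the study listed from these samples, so it is not independent evidence. The other members were not called: the E protein TCF3 differed by 0.65 (limma adjusted p = 0.166), the scaffold LDB1 by 0.53, the helix-loop-helix factor TAL1 by -0.49 and the bridging protein LMO2 by 0.27. CBFA2T3 (ETO2), a corepressor in this complex, differed by -0.56 without overlap between the groups (limma adjusted p = 0.307).

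Among 7 tested relatives of the 10 genes, SOX4, a SOX factor of progenitor cells, was called. Its signal was 8.31, 5.50 and 8.73 array medians on parental and 28.0, 19.4 and 26.6 on resistant arrays, a log2 difference of 1.73, or 3.31-fold, with a limma adjusted p of 0.0347. Another of its probe sets was called as well, from a parental level of 0.160 in the background range, so that 2 of 4 tested probe sets of SOX4 were called. ZBTB7B, a relative of ZBTB7A, differed by 1.51 without overlap but was not called (limma adjusted p = 0.0847). GATA3 and ZFPM2 were marked by parental replicate 1: GATA3 read 30.3, 5.0 and 2.31 array medians on parental and 2.40, 2.09 and 3.53 on resistant arrays, and ZFPM2 read 22.2, 4.19 and 2.46 against 23.1, 17.5 and 25.2.

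KLF10, a TGF-beta inducible relative of KLF1, was the only gene of the list called lower by its representative probe set. Its mean signal was 26.2 ± 5.60 array medians in parental and 8.20 ± 0.513 in resistant cells (SD, n = 3), a log2 difference of -1.65, or 3.15-fold lower, with a limma adjusted p of 0.0241. The resistant arrays lay close together, below every parental array. Of the 7 tested KLF genes 5 were below 0, as were 5735 of all 11810 genes, and 7 genes are too few to set against that share. Among the 5 was KLF3, a repressor that competes for KLF1 sites, at -0.59 without overlap (limma adjusted p = 0.268). KLF2 ran the other way, with 0.378, 2.04 and 2.26 array medians on parental and 2.61, 3.29 and 4.44 on resistant arrays, a difference of 1.48 without overlap (limma adjusted p = 0.318).

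The partners and relatives of NFE2 had 0 limma calls among 6 tested genes. Limma's unadjusted p was under 0.05 in 2 of them, against 2362 of all 11810 genes. Of the 6, 4 were below 0, as were 5735 of the 11810. BACH1, the haem-sensing repressor that competes with NFE2 for small MAF proteins, read 25.4, 25.5 and 21.8 array medians on parental and 13.01, 10.5 and 16.2 on resistant arrays, a log2 difference of -0.89 (limma adjusted p = 0.123). The small MAF protein MAFF differed by -0.67 (limma adjusted p = 0.248) and NFE2L1 by -0.69 (limma adjusted p = 0.340), and in each of the 3 genes the groups did not overlap. Resistant arrays all lay below parental arrays in 14.2% of all genes, and 6 genes are too few to set against that share.

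Of 5 tested ETS genes 0 were called by limma, and 1, GABPA, had an unadjusted p under 0.05. GABPA read 9.64, 10.6 and 10.6 array medians on parental and 6.13, 5.42 and 4.41 on resistant arrays, a difference of -0.96 (limma adjusted p = 0.0857). FLI1 and ERG, ETS factors of megakaryocytes, did not reach the level filter.

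The corepressors through which BCL11A, ZBTB7A and GFI1B act also had 0 limma calls, among 18 tested genes with a median difference of 0.18, of which 4 had an unadjusted p under 0.05, again beside 2362 of 11810 genes. EHMT2 (G9a), a histone H3K9 methyltransferase, differed by 1.00 (limma adjusted p = 0.153), and RCOR1 (CoREST), the partner of KDM1A, by -0.71 (limma adjusted p = 0.168). MBD3 and MTA3 of the NuRD complex differed by 0.76 and 0.67 (limma adjusted p = 0.210 and 0.211), while CHD4, the NuRD ATPase, differed by 0.06. In EHMT2, RCOR1, MBD3 and MTA3 the groups were separate. Over all 18 corepressor genes they were separate in 38.9%, against 30.2% of all genes.

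The 13 tested regulators of globin switching and of BCL11A had 0 limma calls, 1 unadjusted p under 0.05 and a median difference of 0.10. NFIX read 0.888, 0.176 and 0.969 array medians on parental and 2.59, 2.01 and 2.66 on resistant arrays, a difference of 2.17 from a parental level in the background range (limma adjusted p = 0.157). LIN28B, an RNA-binding protein of fetal erythropoiesis that lowers BCL11A, differed by 0.65 with overlapping groups (limma adjusted p = 0.401), while for FOXO3, the stress factor ATF4 and the orphan receptor NR2C1 the groups were separate but not called. The groups were separate in 30.8% of the 13 genes, against 30.2% of all genes. Of 5 tested coactivators 0 were called by limma and 0 had an unadjusted p under 0.05.

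**Figure D4:**
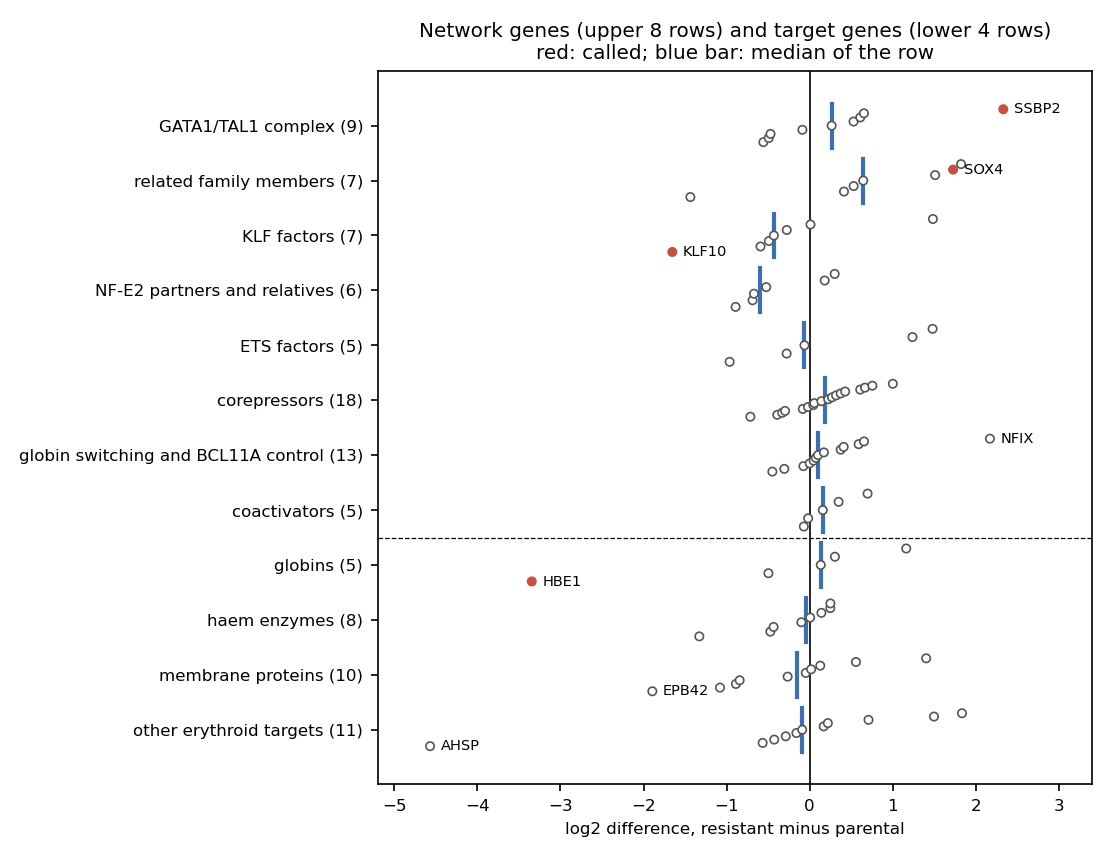
Log2 difference, resistant minus parental, of each gene's representative probe set in the 8 groups of network genes and the 4 groups of target genes, with called genes in red, the median of each row as a blue bar and the number of tested genes in parentheses. SSBP2, SOX4, KLF10 and HBE1 were called, and the row medians lie between -0.60 and 0.65.

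The targets of these factors were read from a list of 46 globin, haem, membrane and other erythroid genes, of which 34 had a tested probe set. By representative probe set 0 were called higher and 1 lower, which is 2.94% against 2.77% of all genes. The median difference was -0.07, and in 4 genes the resistant arrays all lay above and in 10 all below the parental arrays, which is 11.8% and 29.4%, against 16.1% and 14.2% of all genes. HBE1, the embryonic beta-like globin gene, was the gene called lower, from 670.3, 561.7 and 569.5 array medians in parental to 73.8, 73.5 and 37.6 in resistant arrays, a log2 difference of -3.35 with a limma adjusted p of 0.00562. HBZ, the embryonic alpha-like globin gene, differed by less than the spread, with 551.3, 652.7 and 617.2 against 713.8, 620.3 and 662.4 and a difference of 0.13 (95% interval -0.35 to 0.61).

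HBD, the delta globin gene, read 50.05, 64.2 and 59.7 array medians on parental and 114.1, 99.8 and 189.0 on resistant arrays, a difference of 1.16 that was not called (limma adjusted p = 0.110), and HBB differed by 0.30 (limma adjusted p = 0.577). The fetal genes HBG1 and HBG2 and the alpha genes HBA1 and HBA2 share their probe sets with each other, and none named 1 of them alone, so they are not analysed here. BLVRB, an enzyme of haem breakdown, differed by -1.33 (limma adjusted p = 0.0844). Of the 34 tested targets, taken as markers of the labelled erythroid type, 30 were at or above 1 array median on all 6 arrays. The exceptions were AHSP, KIT, CA2 and EPB42. The level filter favours such a count, which was 9602 of all 11810 represented genes. It also leaves out those of the 36 targets with a probe set that did not reach the filter. Named after their values were seen, HBZ had at least 551.3, the transferrin receptor TFRC at least 230.1 and RHAG at least 130.5 array medians on every array, whereas the membrane protein EPB42 read 0.203, 3.02 and 2.14 on parental and 0.959, 0.272 and 0.0980 on resistant arrays.

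Of 10 tested membrane genes, ANK1, which anchors the red cell skeleton, had 1 of its 7 probe sets called. With this one it read 16.04, 11.3 and 9.28 array medians on parental and 41.3, 33.5 and 36.4 on resistant arrays, 3.10-fold higher with a limma adjusted p of 0.0358, while its representative probe set differed by 1.40 with a limma adjusted p of 0.0661. The spectrin SPTB differed by -0.89, the Kell antigen KEL by -1.08 and the Rh antigen RHD by -0.84, with groups that did not overlap and limma adjusted p of 0.0916, 0.147 and 0.182. In either direction the groups were separate in 50% of the 10 membrane genes, against 30.2% of all genes. AHSP, the chaperone of alpha globin, read 1.97, 11.7 and 9.84 on parental and 0.0488, 1.54 and 0.225 on resistant arrays, without overlap and uncalled (limma adjusted p = 0.139). CA1 and HEMGN were low on parental replicate 1, with 1.11 against 54.6 and 28.0 for CA1 on the other parental arrays.

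Markers of other blood lineages were read beside BCL11A, which is also a factor of B cells, and beside MYB. Of 9 measured B lineage genes 2 were tested and 0 called. MS4A1, EBF1, VPREB1 and IGLL1 were under 1 on all 6 arrays, and the summed level of the list was 4.64, 7.89 and 8.39 array medians on parental and 5.73, 5.18 and 7.69 on resistant arrays. The summed level of 10 megakaryocyte genes was 32.2 to 53.3 in parental and 14.7 to 20.3 in resistant arrays, or 19.4 to 42.5 and 10.6 to 13.3 without F2R, its highest gene, with 0 of 6 tested genes called and GP9, PPBP and VWF under 1 throughout. To what was left ITGA2B gave 3.95, 23.1 and 10.4 on parental and 0.260, 1.78 and 0.873 on resistant arrays. The list did not shift evenly: the parental and resistant means were 6.32 and 2.75 for TUBB1 but 3.84 and 3.90 for THBS1. The summed level of 10 myeloid genes was 49.5 to 73.1 in parental and 16.4 to 28.0 in resistant arrays, with 0 of 4 tested genes called and MPO, PRTN3 and CD14 under 1 throughout. LYZ alone carried this sum, with 42.1, 60.9 and 60.5 on parental and 21.3, 19.4 and 10.1 on resistant arrays, and the other 9 genes together gave 7.39, 12.1 and 8.24 against 6.64, 8.32 and 6.34, which overlapped. The part of these markers in the differences of the erythroid factors was not tested.

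The summed level of 14 epithelial genes was 650.8 in parental replicate 1, against 342.3 and 274.5 in the other parental arrays and 227.1 to 311.3 in resistant arrays. Of the 14 genes, 13 were higher on parental replicate 1 than the mean of the other parental arrays. The same count was 19 of 36 for the erythroid targets and 3 of 9 for the B lineage genes. It was 3 of 10 for the megakaryocyte and 2 of 10 for the myeloid genes, and the share over all genes was not counted. Of the epithelial genes, 0 of 10 tested were called, and CLDN4 and CDH17 were under 1 on all arrays. The part of this array in the values of KLF1, NFE2 and ZFPM1 is given by the differences without it above.

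The genes whose pattern over the 6 arrays was most like that of the first BCL11A probe set were CILK1, SLC25A32, SOX4, PROX1 and PIAS4, with Pearson correlations of log2 signal of 0.997, 0.995, 0.992, 0.990 and 0.989. Groups of 3 that differ give high correlations by themselves, and 112 genes exceeded 0.95, so this is a description. PROX1, a homeobox factor, read 0.783, 0.145 and 0.693 array medians on parental and 8.93, 9.59 and 10.3 on resistant arrays, a log2 difference of 4.48 with a limma adjusted p of 0.0222. SLC25A32, the mitochondrial folate carrier, read 23.4, 17.4 and 22.3 on parental and 44.1, 36.3 and 46.2 on resistant arrays, a difference of 1.01 that was not called (limma adjusted p = 0.0857).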

How the data were processed

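RNA of 3 parental and 3 resistant samples was hybridised to Affymetrix HG-U133 Plus 2.0 arrays. The deposited values are linear intensities, 1 per probe set, which the authors made with MAS5 (version not given in the sources used here). The division by the array median described in the study's methods was not present in them, since the medians were 14.3, 13.1 and 12.7 on parental and 12.3, 12.5 and 10.2 on resistant arrays, and it was applied here. Values under 0.01 were set to 0.01 before log2, and no pseudocount was added.

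Of 54675 probe sets, 62 controls and those with a mean under 1 array median were left out, and 26692 were tested with limma 3.58.1 in R 4.3.3 (lmFit, eBayes, two-sided, Benjamini-Hochberg over all tested). The level filter stands in for the control strength filter of the study, which needs its software. Folds come from mean log2 differences.

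Platform annotation gave 1 gene for 41097 probe sets, of which 41043 matched RefSeq of GRCh38.p14 by gene ID. Promoter sequences are from RefSeq of that assembly, for 9 of the 10 genes. The 10 genes and all gene lists were chosen with earlier results of these data known. Every probe set of the 10 genes is described. From the lists, the rule names genes with a called probe set and up to 4 genes per role with the smallest p, and with BCL11A the 5 genes most like it. Some genes within that limit of 4 are not described. Among them are LYL1, SOX5 and KLF11, with overlapping groups. HBQ1, PPOX and UROD are others, not called but with every resistant array below every parental array. LDB1, TAL1, LMO2, CHD4, GATA3, LIN28B, FLI1, ERG, HBZ, RHAG, TFRC, EPB42, KIT, CA2, CA1, HEMGN, F2R, ITGA2B, TUBB1, THBS1 and LYZ were named after their values were seen.

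The fit was tested on simulated data. The alternatives were other scalings, filters, pseudocounts and tests, a replicate block, and leaving out arrays or shared probe sets. The number of arrays limits the precision.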

Additional observations from a re-analysis of the deposited data

How the results depend on the processing

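Counts are given as higher and lower calls. Over all probe sets, 319 and 303 were called, and the values were 359 and 342 with quantile normalization, 205 and 317 with values as deposited, 97 and 77 without a level filter, 462 and 455 with a pseudocount of 0.25, 599 and 592 with a pseudocount of 1, 563 and 570 with limma's intensity trend and robust prior, 82 and 44 with the methods' t-test, and 204 and 190 without _x_at and _s_at probe sets. Leaving out single arrays gave 103 to 633 and 79 to 447. For the 10 genes, 3 higher calls became 0 without a level filter, 6 and 7 with pseudocounts of 0.25 and 1, 5 with the trend, 0 with the methods' t-test and 1 without shared probe sets, and 0 to 3 without single arrays (3 without parental replicate 1, 2 without parental replicate 2, 1 without parental replicate 3 and 0 without any resistant array), with 0 lower calls throughout. For the network list, 7 and 1 called probe sets became 2 and 0 without a filter or with the methods' t-test, 11 higher with a pseudocount of 1, 4 and 0 without shared probe sets, and 5 to 12 and 0 to 2 without single arrays (12 and 2 without parental replicate 1). For the target list, 1 and 1 became 2 higher with quantile normalization, 0 higher as deposited, without a filter and without shared probe sets, 3 and 2 with the 75th percentile, 4 and 2 with a filter at 2 array medians, 3 higher with a pseudocount of 0.25, 5 and 3 with a pseudocount of 1, 6 and 2 with the trend, 0 and 0 with the methods' t-test, and 0 to 3 and 1 without single arrays. The replicate numbers did not pair the samples, since deviations of same-numbered arrays correlated at -0.0253 to -0.00641 and no array correlated best with its own number, and the replicate block gave 133 and 136 calls over all probe sets, 3 and 0 for the 10 genes (the fourth SOX6 probe set lost the call, with a limma adjusted p of 0.0988, and the second BCL11A probe set gained it, with 0.0497), 5 and 0 for the network and 0 and 1 for the targets. The first GATA2 probe set turned to -0.067 as deposited and ran from -0.016 to 0.31 without single arrays (-0.016 without parental replicate 1, -0.0075 without resistant replicate 1), and the first SOX6 probe set turned to -0.13 as deposited and ran from -0.17 to 0.35 (-0.16 without parental replicate 2, -0.17 without resistant replicate 2). Apart from these 6 values, the 12 followed probe sets, the first of each of the 10 genes and every called one, kept their direction. Of the values, 167 kept their side of the threshold, 17 lost the call and 5, all of MYB, gained it. The cause of these changes was not tested. The fourth BCL11A probe set was not tested in 6 of the 17 alternatives, among them the loss of each resistant array, and has no value there. Signals under 1 array median, as in the parental arrays for BCL11A, limit what a fold means.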
